A study of Mus musculus with 16 samples.

Results

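The genes Sbspon, Tdrd9, Enpp5, Eya4, Plscr2, Fap and Clca3a1 were followed through hematopoietic stem cells (HSC) of 3 ages and through common lymphoid progenitors (CLP), as 7 of the 18193 genes with a probe set on the array. They were picked because earlier results of these arrays had shown them low before old age and high in old HSC. Their differences between young, 32-week and old HSC are thus given as a description, with no test. Of several probe sets for a gene, the one of highest mean over 16 arrays was used. RNA from sorted bone marrow cells of C57Bl6 mice, all labelled female, was measured on 16 Affymetrix mouse expression arrays, each prepared from 4000 to 7000 cells.

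The groups were 3 arrays of young wild type HSC (9 to 12 weeks), 3 of old wild type HSC (24 months), 3 of mid-aged wild-type HSC (Polgtm1Lrsn+/+, 32 weeks), 3 of mutator HSC (Polgtm1Lrsn-/-, 32 weeks), 2 of Ly6D-positive CLP and 2 of Ly6D-negative CLP, both from wild type mice of 8 to 12 weeks. Mutator mice carry a mitochondrial DNA polymerase without proofreading in every tissue and from birth, so the allele is not restricted to blood. The design set HSC of mid-aged wild-type and mutator mice against those of young and old animals. The replicates are labelled biological, but the labels do not say how many mice went into each array.

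HSC sit at the top of blood formation and give rise to all blood lineages. With age, phenotypic HSC of the mouse become more numerous, contribute less to lymphoid cells and lean towards the myeloid and platelet lineages. CLP lie downstream on the lymphoid side, and surface Ly6D separates CLP that are turning to the B lineage from those that are not. The 7 genes belong to unrelated families. Sbspon encodes a secreted matrix protein with somatomedin B and thrombospondin repeats, and Fap a cell-surface serine protease of the prolyl peptidase family that is best known from activated fibroblasts. Enpp5 encodes a membrane protein of the nucleotide pyrophosphatase family, Plscr2 a phospholipid scramblase and Clca3a1 a member of the calcium-activated chloride channel regulators. Eya4 is a transcriptional coactivator and phosphatase that works with DNA-binding homeodomain proteins, and Tdrd9 is a Tudor-domain helicase that silences transposons through piRNAs in the male germ line.

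Because the 7 genes moved together, the sequence ahead of their starts was examined for shared features. A RefSeq promoter window on GRCm38.p6, reaching from 250 bases before to 50 bases after the start, was at hand for Tdrd9, Eya4 and Clca3a1. The 250 bases before the start read as follows, 5′ to 3′ on the gene's strand, with CpG dinucleotides in capitals. They lie at chr12:111971309-111971558 on the plus strand for Tdrd9, chr10:23349944-23350193 on the minus strand for Eya4 and chr3:144760978-144761227 on the minus strand for Clca3a1.
Tdrd9: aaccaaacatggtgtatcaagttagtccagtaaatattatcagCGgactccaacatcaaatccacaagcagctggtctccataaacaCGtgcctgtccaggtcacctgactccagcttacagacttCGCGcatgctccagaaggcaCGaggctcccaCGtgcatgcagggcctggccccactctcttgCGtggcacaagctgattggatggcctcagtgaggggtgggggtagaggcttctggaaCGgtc
Eya4: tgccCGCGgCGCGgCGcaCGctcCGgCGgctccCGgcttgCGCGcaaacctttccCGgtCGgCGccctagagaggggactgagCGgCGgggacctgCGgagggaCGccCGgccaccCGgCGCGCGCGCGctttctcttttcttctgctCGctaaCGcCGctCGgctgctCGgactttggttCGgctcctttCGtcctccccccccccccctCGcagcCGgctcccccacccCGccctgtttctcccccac
Clca3a1: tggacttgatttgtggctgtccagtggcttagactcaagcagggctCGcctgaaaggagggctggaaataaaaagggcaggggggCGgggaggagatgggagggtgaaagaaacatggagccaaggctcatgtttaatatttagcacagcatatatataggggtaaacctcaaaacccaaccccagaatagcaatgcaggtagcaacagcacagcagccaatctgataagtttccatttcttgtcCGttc
The 3 stretches differ in CpG content, and genes with a shared pattern over the arrays thus had starts of unlike composition. The full window held 10 CpG in Tdrd9, 36 in Eya4 and 3 in Clca3a1, against a median of 7 over 32851 windows. A second, overlapping Eya4 window held 28. Of all windows, 56.5% had fewer CpG than that of Tdrd9, 93.8% fewer than the CpG-rich window of Eya4 and 23.3% fewer than that of Clca3a1.

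Short motifs were searched on both strands of the full windows. The E-box (CANNTG) was in the windows of all 3 genes and in 72.3% of all windows. The CCAAT box (CCAAT) was in those of Tdrd9 and Clca3a1 and in 37.4% of all, and the GC box (GGGCGG) in those of Eya4 and Clca3a1 and in 35.7% of all. No match was found in these windows for TATAAA of the TATA box (13.6% of all windows) or the RUNX core TGTGGT (16.8%). Nor was there a match for AGATAA, a form of the GATA factor motif (11.2%), AP-1 as TGANTCA (7.81%) or CRE as TGACGTCA (1.79%). Only these forms were searched, and others can be present. The Clca3a1 stretch, for example, holds TGATAA, also a form of the GATA factor motif. None of these motifs contains another, and a match here describes letters only.

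The identity of the sorted cells was checked with marker genes. Slamf1 lay at 280 to 718 on the 12 HSC arrays and at 21.9 to 37.2 on the CLP arrays, and Procr at 1355 to 2722 and 9.76 to 43.7. Il7r lay at 11.04 to 28.8 in HSC and 2162 to 3930 in CLP. Ly6d was at 1126 and above in Ly6D-positive CLP and at 23.0 to 54.7 in Ly6D-negative CLP. The markers thus followed the labels. The sex label was not borne out on every array, since mid-aged wild-type replicate 3 and the 4 CLP arrays had Xist at 9.12 to 16.8 and the Y-linked Eif2s3y at 423 to 758, against Xist of 3507 or more and Eif2s3y of at most 12.7 elsewhere. The arrays also differed in RNA quality. The log2 ratio of 3′ over 5′ actin probe sets was 4.24 to 5.26 on the 6 arrays of 32-week mice, 2.20 to 2.27 on the old, 2.39 to 2.61 on the young and 2.11 to 3.85 on the CLP arrays. Mid-aged wild-type replicate 1 and mutator replicate 1 had the lowest mean intensity. Young replicates 2 and 3 were the most alike of any replicate pair (SD of their log2 difference 0.168, others 0.256 to 0.636).

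All 7 genes were highest in old HSC. On the scale of log2(intensity + 16), the difference of old from young HSC was 4.51 ± 0.442 (SE) for Sbspon, the largest among 13481 genes tested, and 2.31 ± 0.223 for Enpp5, which ranked 34. Eya4, Tdrd9 and Plscr2 held ranks 2, 3 and 4, Fap rank 6 and Clca3a1 rank 9. The median difference of the 7 genes was 3.69, and that of all genes tested was -0.009. Every old array exceeded every young array for the 7 genes, an order that 14% of all genes tested showed, and 1.05% of all genes tested were called higher in old HSC (limma, adjusted p under 0.05). These values chose the genes and support nothing further. In bulk RNA, more cells carrying a transcript and more RNA per cell cannot be told apart.

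**Figure D1:**
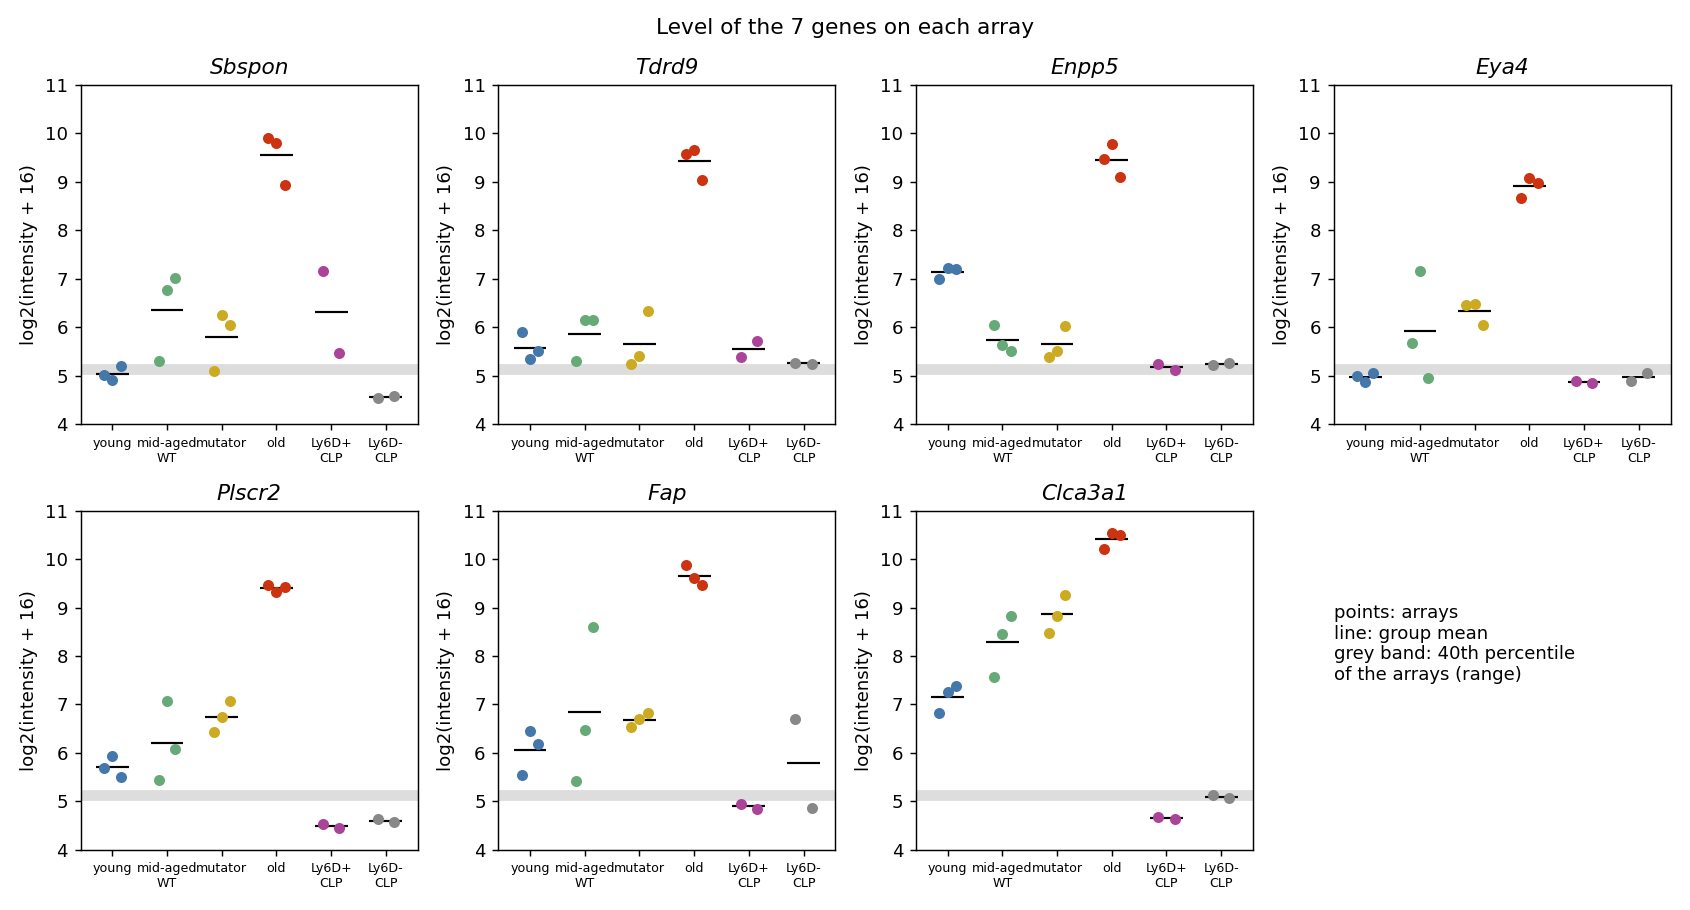
Level of the 7 genes on each of 16 arrays as log2(intensity + 16), 1 panel per gene, with points for arrays, lines for group means and a grey band for the range of the arrays' 40th percentiles. The old HSC arrays (red) lie above every other array in all 7 panels, while the 32-week arrays (green and yellow) lie below the young ones for Enpp5 and above them for Clca3a1.

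Whether the genes are absent before old age was examined against each array's own 40th percentile, which corresponds to intensities of 16.6 to 21.3. A strict reading, above that percentile on all 3 old arrays and on no other HSC array, fitted 14 of the 13481 genes (0.104%) and none of the 7. Sbspon and Eya4 came closest, being above it on 1 of 3 young arrays each, and both were above it on 6 of the 9 HSC arrays that are not old. Tdrd9, Enpp5, Plscr2, Fap and Clca3a1 were above it on all 9. By this percentile the 7 genes were not confined to old HSC. It is not a detection call, and some of these values lay close to it, such as Tdrd9 at 21.6 on mutator replicate 1 and 23.7 on mid-aged wild-type replicate 1. Whether such low values are expression or background was not tested. The genes are therefore described here by the size of the step at old age. Every old array lay above every one of the 9 other HSC arrays for all 7 genes, as for 7.93% of all genes tested. A gap of at least 2-fold was met by 0.297% of genes, Sbspon, Tdrd9, Enpp5, Eya4 and Plscr2 among them, and a gap of at least 4-fold by 5 genes (0.0371%), Tdrd9 and Plscr2 among them. The distance between the lowest old array and the highest other HSC array was 2.70 on the log2 scale for Tdrd9 and 2.24 for Plscr2, ranks 1 and 2 of all genes tested. It was 1.91 for Sbspon, 1.87 for Enpp5, 1.52 for Eya4, 0.95 for Clca3a1 and 0.86 for Fap. Genes outside the group also had wide gaps, Ccbe1 with 2.14, Cavin2 with 2.08 and Tm4sf1 with 2.06, named here after their values were seen.

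Sbspon, the secreted matrix protein, had intensities of 16.3, 14.1 and 20.6 on young, 23.3, 93.3 and 114 on mid-aged wild-type, 18.1, 59.8 and 50.4 on mutator and 948, 882 and 470 on old HSC arrays. The mean intensity in old HSC was 9.99 times that of mid-aged wild-type HSC, and no ratio to young HSC is given because the young arrays were near the floor. The 3 mid-aged arrays lay above the young ones, 1 of them narrowly, and the mutator arrays overlapped both. Its other probe set gave a difference of old from young HSC of 3.61 on the log2 scale, with the same order of group means in HSC.

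Tdrd9, the piRNA-pathway helicase, had intensities of 43.3, 24.8 and 29.2 on young, 23.7, 54.6 and 54.5 on mid-aged wild-type, 21.6, 26.2 and 65.1 on mutator and 752, 789 and 512 on old HSC arrays. The first 3 groups overlapped throughout, and the old mean was 15.4 to 21.1 times that of each. Tdrd9 was thus the clearest case of a step between 32 weeks and 24 months, with no difference beyond the spread before it.

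Enpp5 had intensities of 112, 134 and 131 on young, 49.6, 33.9 and 29.2 on mid-aged wild-type, 25.96, 29.7 and 49.3 on mutator and 693, 860 and 532 on old HSC arrays. It did not follow age in 1 direction. Both 32-week groups lay below every young array, and the mid-aged wild-type mean differed from young by -1.42 ± 0.223 on the log2 scale. For comparison, 25.4% of all genes tested had every mid-aged array below every young one and 17.7% were called lower. The 32-week arrays are also those with the highest 3′ over 5′ ratios, and the part of this in the dip was not tested.

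Eya4, the coactivator, had intensities of 15.8, 13.4 and 17.1 on young, 35.1, 126 and 14.8 on mid-aged wild-type, 72.1, 72.9 and 50.2 on mutator and 391, 523 and 486 on old HSC arrays. Every mutator array lay above every young one, while the mid-aged wild-type arrays ranged from the young level to well above the mutator level. Without mid-aged wild-type replicate 2, the difference of that group from young HSC fell to 0.34 on the log2 scale from 0.95. Of its 4 probe sets, a second also stepped up with old age (difference 2.21), and the others lay at 8.57 to 12.3 in every group mean and did not separate the groups. The mean of all 4 probe sets gave 1.55.

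Plscr2, the scramblase, had intensities of 35.5, 45.2 and 29.5 on young, 27.4, 119 and 51.3 on mid-aged wild-type, 69.9, 90.8 and 118 on mutator and 691, 622 and 668 on old HSC arrays. Its old arrays were the tightest of the 7 genes, with an SD of 0.08 on the log2 scale. The mutator arrays lay above the young ones without overlap, and the mid-aged wild-type arrays overlapped both. Eya4, Fap and Clca3a1 also had every mutator array above every young one. The share of all genes with this order was not counted, and the low young level had a part in choosing the genes. The mutator arrays also had higher 3′ over 5′ ratios than the young ones, and the part of this was not tested.

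Fap, the serine protease, had intensities of 30.8, 71.3 and 56.9 on young, 27.0, 73.4 and 373 on mid-aged wild-type, 76.6, 87.8 and 97.4 on mutator and 928, 770 and 691 on old HSC arrays. A single array, mid-aged wild-type replicate 3, set the higher mean of its group. The difference of mid-aged wild-type from young HSC was 0.78 with it and -0.11 without it. That array is also the HSC array with low Xist and high Eif2s3y, and the part of this in its Fap level was not tested.

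Clca3a1, the chloride channel regulator, had intensities of 96.9, 137 and 152 on young, 175, 334 and 439 on mid-aged wild-type, 342, 438 and 601 on mutator and 1175, 1479 and 1424 on old HSC arrays. It showed the most gradual course, since every mid-aged wild-type and mutator array lay above every young one and below every old one. Its probe set is of the type that may cross-hybridise with related sequences. A second probe set, annotated to Clca3a1 alone, went from 79.2 ± 12.2 (SD, n = 3) in young to 744 ± 67.0 in old HSC, a difference of 3.002 on the log2 scale. The set shared with the neighbouring gene Clca3a2, gave 3.66, and that of Clca3a2 alone stayed at 7.63 in young and 7.70 in old HSC.

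Placing the 32-week groups between the young mean (0%) and the old mean (100%) on the log2 scale sorted the genes by how far they had come. Mid-aged wild-type HSC stood at 34.7% for Clca3a1, 29.3% for Sbspon, 24.2% for Eya4, 21.6% for Fap, 13.2% for Plscr2, 7.40% for Tdrd9 and -61.4% for Enpp5. Mutator HSC stood at 52.2% for Clca3a1, 34.5% for Eya4, 28.0% for Plscr2, 17.4% for Fap, 16.8% for Sbspon, 2.02% for Tdrd9 and -64.9% for Enpp5. The SD over 3 arrays was as large as 45.04 percentage points for Fap and 28.6 for Eya4 in mid-aged wild-type HSC, so the order among the middle genes is not resolved.

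**Figure D2:**
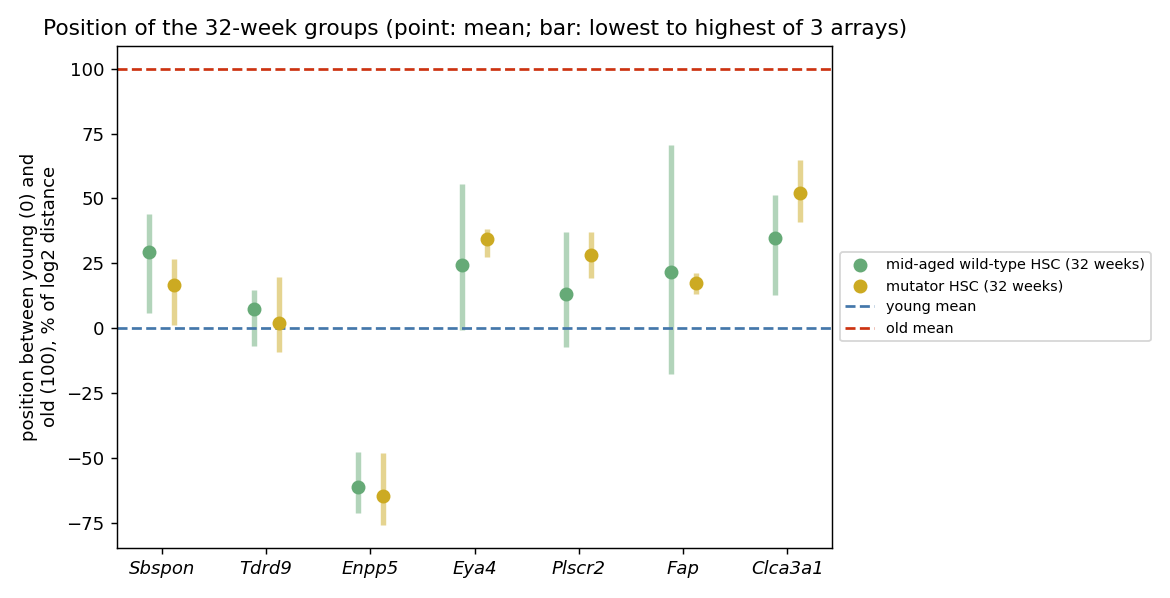
Position of the 2 groups of 32-week HSC between the young mean (0) and the old mean (100), in percent of the log2 distance, for each of the 7 genes, with points for means and bars from the lowest to the highest of 3 arrays. Enpp5 lies below 0 in both groups, Tdrd9 near 0, and Clca3a1 is farthest along at 34.7% and 52.2%.

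Across the 7 genes, the median difference of mid-aged wild-type from young HSC was 0.78 on the log2 scale, against -0.037 over all genes tested, and 6 of the 7 differences were positive. That median was 0.34 without mid-aged wild-type replicate 2 and 0.34 to 1.08 with any 1 array left out. Sbspon (1.32 ± 0.442) and Clca3a1 (1.13 ± 0.305) were above young without overlap, as were 12.9% of all genes tested. Of all genes, 24.2% were called in this comparison, 866 higher and 2392 lower, a split that became 1261 and 1801 with quantile normalization. The median difference of old from mid-aged wild-type HSC was 3.19, from 2.13 for Clca3a1 to 3.72 for Enpp5. In that comparison 29.6% of all genes tested were called, 2841 higher and 1152 lower (2217 and 1590 with quantile normalization), and 27.4% were higher without overlap. These comparisons share arrays with old against young, so their values are set side by side and not as separate evidence. The 3′ over 5′ ratios separate the 32-week arrays from both other ages, and age and this quality measure cannot be told apart here.

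The mutator comparison sets mutator against mid-aged wild-type HSC of the same age. A low level before old age had a part in choosing the genes, which bears on both groups. A lack of difference here thus cannot decide whether a load of mitochondrial mutations brings the change of old age forward. Of the 7 genes, 0 passed the test of mutator against mid-aged wild-type HSC (limma, adjusted p 0.735 to 0.984), and 0 had an unadjusted p under 0.05. All genes tested gave 0% called and 984 genes at an unadjusted p under 0.05. Clca3a1 differed most, by 0.57 (95% interval -0.09 to 1.24, higher in mutator), followed by Sbspon with -0.57 (-1.54 to 0.40) and Plscr2 with 0.55 (-0.18 to 1.28). Eya4 differed by 0.40 (-0.51 to 1.31), Tdrd9 by -0.21 (-0.91 to 0.50), Fap by -0.15 (-1.45 to 1.15) and Enpp5 by -0.08 (-0.57 to 0.41). The signs were mixed, 3 positive and 4 negative, and some turned with 1 array left out, when Fap ran from -0.86 to 0.73 and Eya4 from -0.09 to 1.02. The arrays of both groups overlapped for each gene. The intervals leave room for differences of up to 1.54 in size. They are not set against the differences of old from young HSC, since those chose the genes. The old mean intensity was 2.95 times the mutator mean for Clca3a1 and 19.9 times for Enpp5, which is description for the same reason. Leaving out mid-aged wild-type replicate 2 raised the count over all genes to 221, with 0 of the 7 among them.

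In CLP the genes fell into different levels, listed here as Ly6D-positive and then Ly6D-negative arrays. Clca3a1 lay at 9.50 and 8.87, then 19.14 and 17.4, and Plscr2 at 7.28 and 5.97, then 8.90 and 7.73. Enpp5 lay at 18.9 to 22.1 on all 4 arrays and Eya4 at 12.8 to 17.4. These genes were thus at or close to the floor in CLP. Clca3a1, Enpp5 and Plscr2 were lower in CLP than in young HSC without overlap, by -2.28 ± 0.266, -1.93 ± 0.194 and -1.16 ± 0.290 on the log2 scale, as were 22.2% of all genes tested, while 30.7% of all genes were called in this comparison. All CLP arrays had low Xist and high Eif2s3y and all young HSC arrays the reverse. Cell type and apparent sex thus cannot be told apart in it. Tdrd9 (21.9 to 36.5) overlapped young HSC, as did Eya4. The median of the 7 differences of CLP from young HSC was -0.72, against 0.0103 for all genes tested.

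Sbspon and Fap were uneven in CLP. Sbspon lay at 127 and 28.2 in Ly6D-positive and 7.10 and 7.91 in Ly6D-negative CLP, and Fap at 14.9 and 12.9 in Ly6D-positive and 88.0 and 13.3 in Ly6D-negative CLP. Each high level rested on 1 array. The test of Ly6D-positive against Ly6D-negative CLP called 0 of the 7 genes (limma, adjusted p 0.183 to 0.983), with 1 gene, Sbspon, at an unadjusted p under 0.05, while 2.68% of all genes tested were called and 1859 had an unadjusted p under 0.05. Sbspon differed by 1.76 (95% interval 0.45 to 3.06, unadjusted p 0.0123 from limma), and by 0.91 without Ly6D-positive replicate 1. The bounds for the other 6 genes reached from -2.54 to 1.10, so differences within these bounds could not be resolved.

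Ordering all 6 groups by mean intensity put old HSC first for each gene, with no overlap with the next group. For Tdrd9 the order below it was mid-aged wild-type, mutator, young, Ly6D-positive and Ly6D-negative, and of these neighbours, only the CLP groups did not overlap. For Enpp5 it was young, mid-aged wild-type, mutator, Ly6D-negative and Ly6D-positive, with overlap between the 32-week groups and between the CLP groups. For Clca3a1 it was mutator, mid-aged wild-type, young, Ly6D-negative and Ly6D-positive, with overlap between the 32-week groups alone. Plscr2 had the same order as Clca3a1, with overlap also between mid-aged wild-type and young HSC. For Fap it was mid-aged wild-type, mutator, young, Ly6D-negative and Ly6D-positive, and mutator against young was the only neighbouring pair without overlap. For Eya4 it was mutator, mid-aged wild-type, Ly6D-negative, young and Ly6D-positive, all overlapping their neighbours. For Sbspon it was Ly6D-positive, mid-aged wild-type, mutator, young and Ly6D-negative, and only young against Ly6D-negative did not overlap.

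The families of the 7 genes were followed to see whether relatives moved with them. Of 75 relatives listed, 67 had a probe set and 40 entered the HSC test. In old against young HSC, 1 rose, 0 fell and 39 did not pass, so that 2.5% were called against 1.31% of all genes tested. Their median difference was 0.0259, against -0.009 for all genes. The 7 genes were chosen for this step and the relatives were not, so the counts are not set against each other.

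The gene that rose was Eya1, a paralogue of Eya4 and the highest by mean level among the relatives of Eya4 and its binding partners. Its intensities were 635, 676 and 602 on young, 279, 495 and 289 on mid-aged wild-type, 354, 464 and 539 on mutator and 1439, 1240 and 1316 on old HSC arrays. On this probe set the 32-week arrays lay below the young and the old above all others. Another Eya1 probe set ran the other way at 32 weeks, with means of 217 in young, 484 in mid-aged wild-type, 408 in mutator and 263 in old HSC, so the probe sets disagree on the course before old age. The difference of old from young was 1.04 ± 0.218 (limma, adjusted p 0.0440). That second set differed by 0.15 and the remaining one by 0.05. The call was lost on leaving out any 1 of the 6 old and young arrays, when all probe sets were averaged (0.41), with a pseudocount of 1, with a replicate block, without a filter and with young replicates 2 and 3 as 1 array.

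The scramblase relatives next to Plscr2 on chromosome 9 did not pass. Plscr1 differed by 1.07 ± 0.336 (limma, adjusted p 0.219) and Plscr4 by 0.99 ± 0.258 (adjusted p 0.115). The Plscr1 probe set, like that of Clca3a1, is of the type that may cross-hybridise with related sequences. Plscr1 had intensities of 1643, 1505 and 1841 in old and 864, 755 and 731 in young HSC, without overlap. Atp11b, a flippase subunit and the highest gene of that list, differed by 0.13 ± 0.218 (adjusted p 0.9996).

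In the remaining families none was called in old against young HSC. Enpp4, the neighbour of Enpp5 and the highest Enpp relative, differed by 0.67 ± 0.193 (limma, adjusted p 0.172). Dpp4, the closest relative of Fap and its near neighbour on chromosome 2, differed by -0.09 ± 0.337, Tdrd3 by -0.01 ± 0.194 and the thrombospondin-repeat gene Thsd1 by -0.29 ± 0.218. The 6 Clca relatives on the array did not enter the test, and the highest of them, Clca4a, lay at 11.9 in young and 12.0 in old HSC. Of 18 Tudor and piRNA genes on the array, 7 entered the test and 0 were called by limma, where 1.31% of all genes tested were called. The other genes of that list did not pass the filter, so most partners of Tdrd9 in germ cells have no test here.

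**Figure D3:**
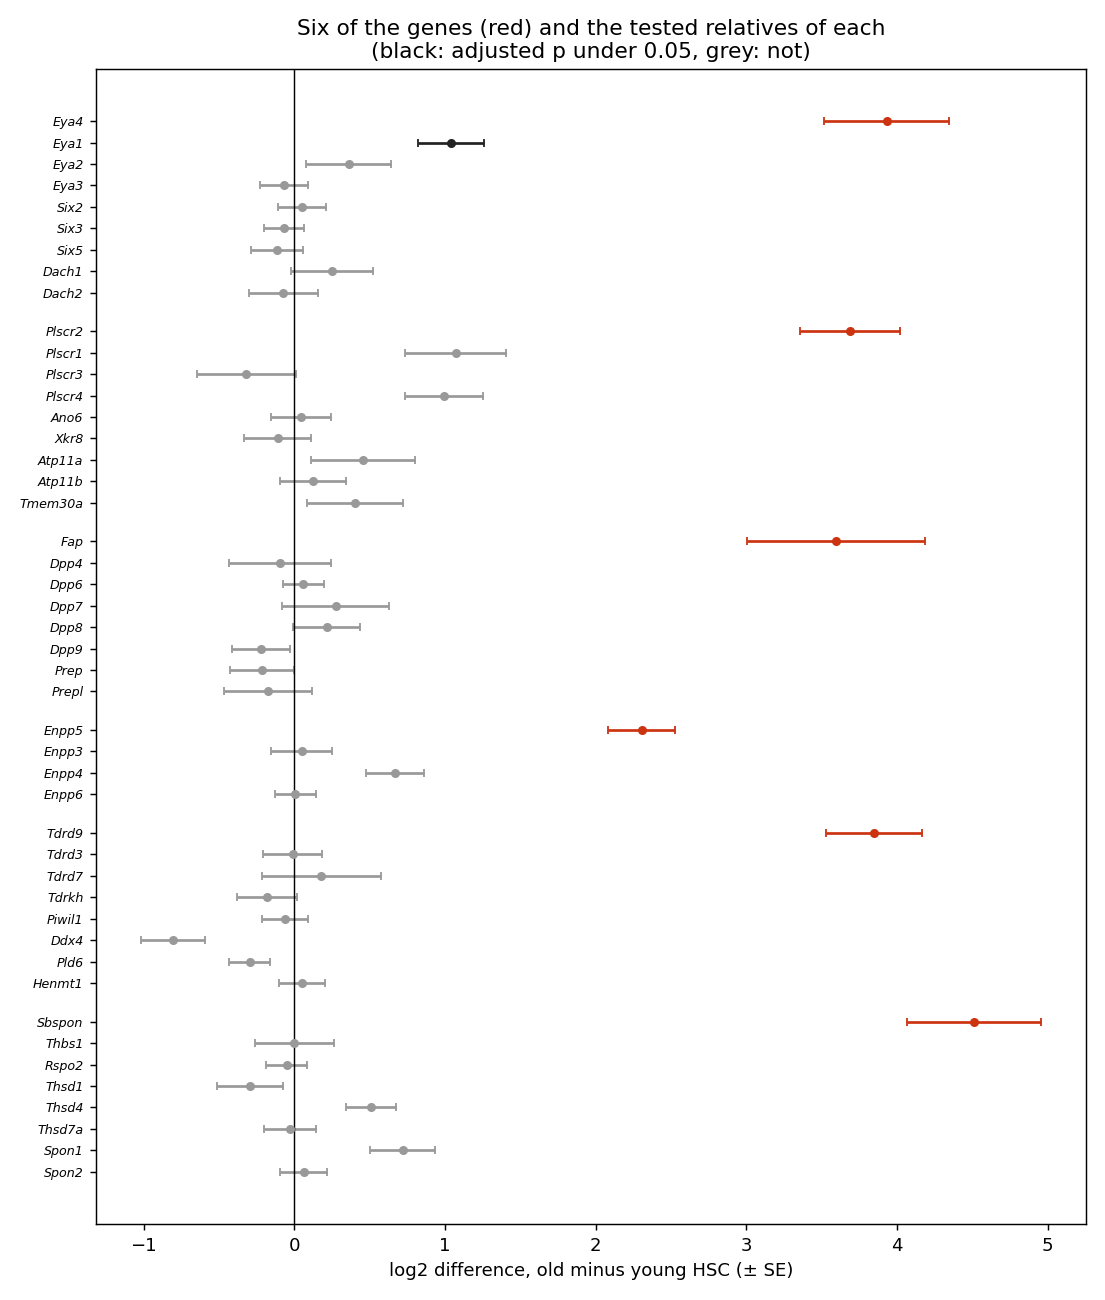
Log2 difference of old from young HSC (± SE) for 6 of the genes (red) and their relatives that entered the test, grouped by family, in black for an adjusted p under 0.05 and grey otherwise. Among the 40 relatives Eya1 alone is black, at 1.04, and the red points lie at 2.31 to 4.51; Clca3a1 is left out because none of its relatives was tested.

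In mid-aged wild-type against young HSC, 1 relative rose and 14 fell of 40 tested, or 37.5% against 24.2% of all genes. Of all genes tested, 17.7% were called lower. Those that fell included Eya1 (-0.87 ± 0.218, limma adjusted p 0.0146, on the probe set used and against the course of the second one), Plscr1 (-1.77 ± 0.336, adjusted p 0.00366), Atp11b (-1.22 ± 0.218, adjusted p 0.00273) and Enpp4 (-1.01 ± 0.193, adjusted p 0.00375). Enpp5 and Enpp4 thus both had lower values at 32 weeks and higher ones at 24 months, although the old level of Enpp4 did not pass. The 32-week arrays are also those with the highest 3′ over 5′ ratios, and the part of this in these falls was not tested. In mutator against mid-aged wild-type HSC, 0 of 40 were called by limma, as for all genes. In CLP against young HSC, which also differ in apparent sex by Xist and Eif2s3y, 4 rose and 16 fell of 44 tested, or 45.5% against 30.7% of all genes. Plscr1 fell by 4.37 on the log2 scale and Enpp4 by 3.18, and Dpp4 rose by 1.66 (adjusted p 0.00437). All Plscr1 values rest on the probe set that may cross-hybridise.

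Genes that flank the 7 on their chromosomes were used to see whether the step reached beyond the gene. Taking 2 genes on each side gave 28, of which 24 were on the array and 17 entered the test. Of these 17, 0 were called in old against young HSC by limma, where 1.31% of all genes tested were called. Their differences ran from -0.24 for Cyp39a1, near Enpp5, to 1.07 for Plscr1, whose probe set may cross-hybridise, with a median of 0.16. The flanks of Enpp5 other than Cyp39a1 differed by 0.63 (Rcan2), 0.67 (Enpp4) and 0.55 (Clic5), and Gca near Fap by 0.57. The flanks of Tdrd9, Atp5mpl (-0.21) and Ppp1r13b (0.16), lay near 0, as did Terf1 (0.20) beside Sbspon and Sh3glb1 (0.13) beside Clca3a1.

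The 7 genes also resembled each other over the 12 HSC arrays. Pearson's r between their log2 values ran from 0.563, for Enpp5 with Clca3a1, to 0.959, for Sbspon with Tdrd9, with a median of 0.883 over 21 pairs. The genes were chosen for the same difference of old from young HSC, so these values describe the set only. Genes outside the set with the profile most like its mean were Cavin2, a caveola protein (r = 0.978), the cation channel gene Trpc1 (0.978), the receptor phosphatase gene Ptprk (0.971), Exoc3l4 (0.971), the angiotensin receptor gene Agtr1a (0.971), the oxysterol receptor gene Gpr183 (0.968), Nckap1 (0.965) and Tc2n (0.965). Cavin2 had the highest level in old HSC of these, 2913 ± 58.9 (SD, n = 3) against 533 ± 83.3 in young and 545 ± 123 in mid-aged wild-type HSC. By single gene, the nearest were Ntn4 for Sbspon (r = 0.985), Smtnl1 for Tdrd9 (0.982), Selp, the adhesion molecule P-selectin, for Clca3a1 (0.973), Ccnj for Enpp5 (0.967), Wwtr1 for Plscr2 (0.963), Gpr183 for Fap (0.961) and Tmem47 for Eya4 (0.938). Selp had the gradual course of Clca3a1, with 152 ± 43.8 in young, 473 ± 144 in mid-aged wild-type, 519 ± 129 in mutator and 1208 ± 117 in old HSC. All 12 arrays underlie each r, and the old arrays set most of it.

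Markers of other cells were summed on each array, since Fap is best known from stromal cells. The 10 stroma markers summed to 365 to 412 in old and 362 to 709 in young HSC, none was called, and Col1a1, Col3a1, Pdgfra and Lum did not enter the test. The stroma sum was thus no higher in old HSC, but few genes set it. Col1a2 alone lay at 149 to 203 in old HSC, and Cxcl12 at 153 and 205 on young replicates 2 and 3. The sum was highest in CLP, at 823 to 1410, where Pdgfrb lay at 613 to 1206. Whether other cells contributed to the Fap level was not tested. The 7 megakaryocyte markers summed to 5452 to 7344 in old and 2560 to 3077 in young HSC. The mid-aged wild-type arrays reached 2249 to 4226 and the mutator arrays 2056 to 2735. Itgb3 rose (1.63 ± 0.340, limma adjusted p 0.0437). Vwf went from a mean of 713 in young to 2889 in old HSC without passing (limma, adjusted p 0.0917). Of the 7 tested, 5 had a positive difference and the list's median was 0.28. Pf4 had means of 798 in young and 808 in old HSC. Of the 9 endothelium markers, which summed to 283 to 327 in old and 247 to 262 in young HSC, Kdr rose (1.09 ± 0.233, adjusted p 0.0490), and Cdh5, Lyve1 and Prox1 did not enter the test. Of the 6 tested, 2 had a positive difference, the list's median was -0.09, and Kdr alone went from a mean of 37.0 to 96.4. The 8 HSC markers on the array gave sums of 13077 to 16087 on old, 10745 to 12191 on young and 6943 to 8503 on mid-aged wild-type arrays. Of the 8 tested, 7 had a positive difference and the list's median was 0.47. Cd34 differed by -0.965 ± 0.277 (limma, adjusted p 0.167) and had its highest group mean, 3513, in Ly6D-negative CLP. Slamf1 (1.07 ± 0.205, adjusted p 0.0273), Procr (0.78 ± 0.145, adjusted p 0.0225) and Hoxb5 (1.03 ± 0.188, adjusted p 0.0196) rose. The 11 macrophage markers went the other way, 302 to 414 in old against 574 to 1144 in young HSC, and Vcam1 fell by 2.19 on the log2 scale (adjusted p 0.0421). The 8 neutrophil markers ranged from 157 to 1434 in old and 1120 to 5521 in young HSC. The part of the megakaryocyte, endothelium and HSC sums in the level of the 7 genes was not tested.

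**Figure D4:**
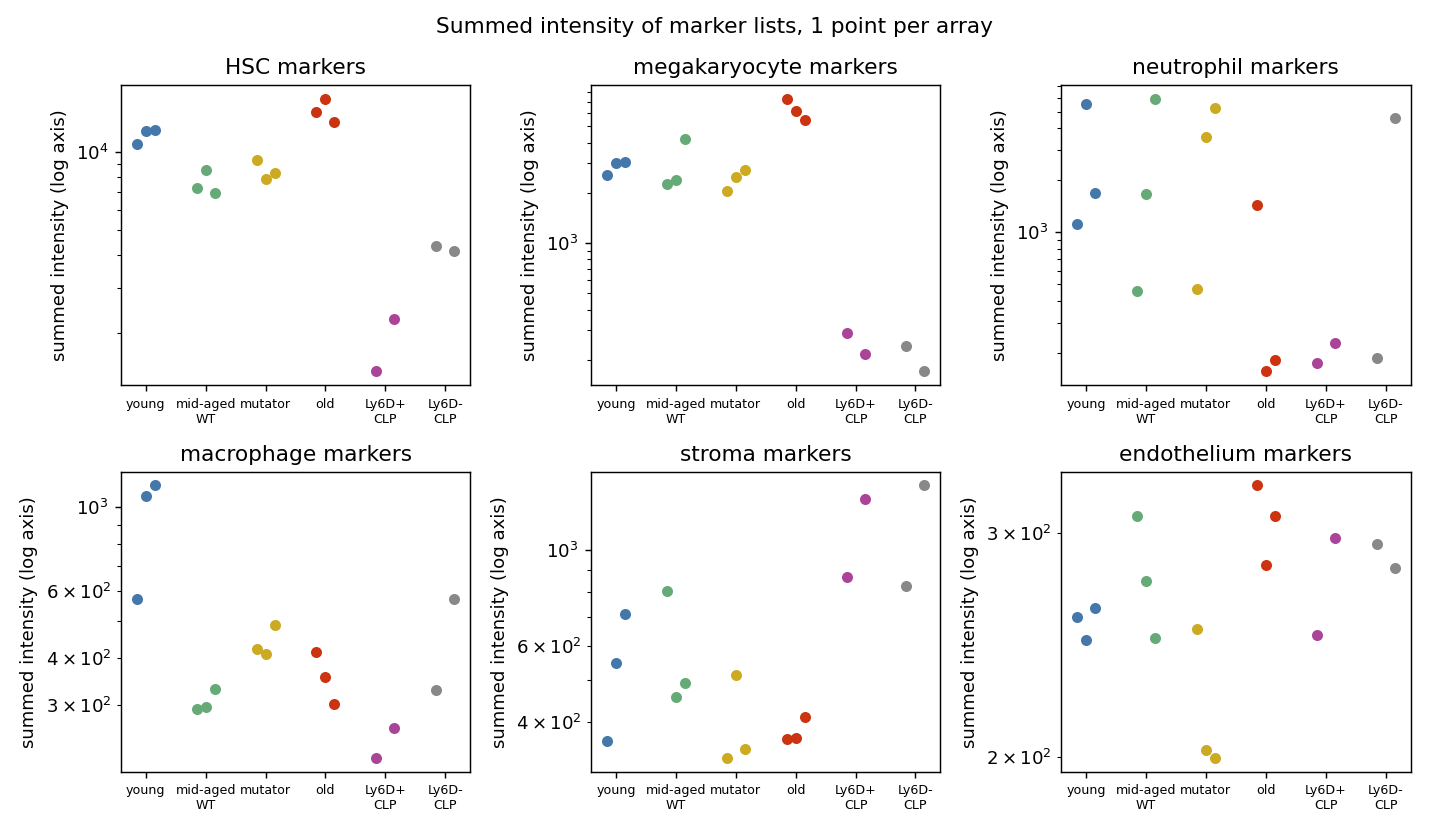
Summed intensity of 6 marker lists on each of 16 arrays, on log axes, 1 point per array by group. The old HSC arrays are highest for HSC markers (13077 to 16087) and megakaryocyte markers (5452 to 7344), and lie within the young range of 362 to 709 for stroma markers.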

How the data were processed

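The authors deposited 1 linear intensity per probe set and array, 45101 probe sets on 16 arrays. Summary method and between-array scaling were not given in the sources used here, and the number of arrays, not a read depth, limits precision. From the deposited intensity, log2(intensity + 16) was computed. Probe sets were named by GEO's platform annotation: 34958 carry 1 symbol, 932 several and 9211 none, and each of 18193 genes took its probe set with the highest mean. A gene was tested if it lay above its array's 40th percentile on at least 3 of 12 HSC arrays (13481 genes) or 2 of 16 arrays (14343 genes, CLP comparisons). Group means were fitted with limma 3.58.1 (lmFit, eBayes) in R 4.3.3, over the 12 HSC or all 16 arrays, with Benjamini-Hochberg adjustment over all genes tested, and checked on simulated data. "Rose" and "fell" mean an adjusted p under 0.05.

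The 7 members and all lists were chosen with earlier results of these data known. Named besides them are relatives called in old against young HSC and the highest relative of each family, the 8 genes most correlated with the members' mean and the nearest gene of each member, and check markers; other names were chosen after their values were seen. Alternatives were other pseudocounts, normalization, probe-set and filter rules, array weights, fewer groups, a replicate block and leaving out arrays. Treating young replicates 2 and 3 as 1 array, and leaving out the 2 arrays of lowest mean intensity, were chosen after seeing the data. Promoter windows and gene order are from RefSeq, GRCm38.p6.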

Additional observations from a re-analysis of the deposited data

How the results depend on the processing

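The median difference of old from young HSC over the 7 genes, 3.69 on the log2 scale, was 4.15 with a pseudocount of 1 and 2.88 with 64, and 3.66 to 3.79 with any 1 array left out. That of old from mid-aged wild-type HSC, 3.19, was 2.54 with a pseudocount of 64, and that of CLP from young HSC, -0.72, was -1.15 and -0.33 with pseudocounts of 1 and 64, -0.90 with array weights, -0.49 with a replicate block and -1.17 to -0.26 with 1 array left out. The low genes lie near the floor, so the pseudocount sets the size of their differences. The 1 relative called in old against young HSC became 0 with a pseudocount of 1, without a filter, with a replicate block, with young replicates 2 and 3 as 1 array and with any 1 array left out (0 to 0), and 8 with array weights, 6 with only the groups compared and 4 without the 2 arrays of lowest mean intensity. All genes called in that comparison, 176, became 1879 with array weights, 1007 with only the groups compared, 93 with young replicates 2 and 3 as 1 array, 409 without the 2 arrays of lowest mean intensity and 88 to 111 with 1 array left out. The cause of these changes in counts was not tested. Values of single genes were judged by their side of the threshold where tested, whatever the size of the move. Where not tested, they were judged by whether they moved by less than their spread. By these rules 681 values held. Another 32, all without a test, moved further (14 with a pseudocount of 64, 11 with 1), and 11 calls were lost, each of Eya1. No called value changed sign. Among values that were not called or not tested, 11 changed sign, 9 of them with 1 array left out, such as Fap in mid-aged wild-type against young HSC (0.78 to -0.11 without mid-aged wild-type replicate 3) and in mutator against mid-aged wild-type HSC (-0.15 to 0.73 without the same array). Deviations of arrays with the same replicate number correlated at -0.18 to 0.51 (18 comparisons, 9 over 0.1). Young and old HSC gave 0.51, 0.42 and -0.01, so not every pair passed 0.1, and the numbers were not taken to pair the arrays. In 19 of 36 comparisons an array correlated best with its own number in another group, a hint from the data and not the design. The replicate block left 172 genes called in old against young HSC.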

Other observations

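Among the relatives of Tdrd9, the germ-line RNA helicase gene Ddx4 was called between the CLP groups, a comparison in which Tdrd9 (0.29 on the log2 scale, arrays without overlap) did not pass the test. It was chosen here after its values were seen. Ddx4 had a mean intensity of 323 ± 72.8 (SD, n = 2) in Ly6D-negative and 21.4 ± 13.8 (n = 2) in Ly6D-positive CLP, a difference of -3.22 ± 0.297 (SE) on the log2 scale (limma, adjusted p 5.3e-05). It was the 1 relative of 44 tested that was called in this comparison, or 2.27% against 2.68% of all genes tested. In HSC it had 31.9 ± 4.89 in young, 19.7 ± 10.9 in mid-aged wild-type, 21.9 ± 2.63 in mutator and 11.6 ± 4.82 (n = 3 each) in old arrays, and the difference of old from young HSC was -0.80 ± 0.212 (adjusted p 0.122).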
